A study of Mus musculus with 12 samples.

Results

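Ebf2-EGFP+ cells of the mouse cerebral cortex were followed between the embryonic days E13.5 and E15.5, the later step of a time course of bulk RNA-seq, in 4 of 12 libraries. These libraries were chosen by their labels alone, 2 of Ebf2-EGFP+ cells at E13.5 and 2 of Ebf2-EGFP+ cells at E15.5. All embryos carried the transgene of the strain Tg(Ebf2-EGFP)FB58Gsat, in which Ebf2 regulatory sequence drives EGFP, and no other allele or treatment was named. Cells of the dissociated cortex were separated by FACS into Ebf2-EGFP+ cells and Ebf2-EGFP- cells, each library came from pooled embryos, and replicates 1 and 2 of a stage were separate biological replicates. The remaining 8 libraries, the Ebf2-EGFP- cells of all 3 stages and Ebf2-EGFP+ cells of E11.5, were used only where they are named. EGFP fluorescence marks cells in which the transgene is or was active and not 1 cell type. The study describes Cajal-Retzius (CR) and subplate neurons among the Ebf2-EGFP+ cells at E13.5 and mostly CR neurons at E15.5. In a bulk sample, a shift in the share of a cell type and a shift in the RNA of each cell cannot be told apart, and this holds for every change given here.

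CR neurons are early-born neurons that arise at the borders of the cortex, in the cortical hem, the septum and the ventral pallium, and spread below the pia to form the outermost layer. They secrete reelin, a large extracellular glycoprotein that binds the receptors Vldlr and Lrp8 on migrating cortical neurons and acts through the adaptor Dab1 to order them into layers. CR neurons receive GABAergic and glutamatergic input while they are still in the embryo, are rich in calcium-binding proteins such as calretinin, and are largely lost by cell death after birth. Ebf2 belongs to a family of transcription factors with an HLH domain that act in early neuronal differentiation.

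Levels were given as FPKM (fragments mapped to a transcript, scaled by its length and by the mapped fragments of the library), for 4859 coding genes and 200 long non-coding RNA (lncRNA) transcripts. Both tables list features that the authors had called differential between the sorted populations, so counts here are counts within those lists. From E13.5 to E15.5, 1037 coding genes (21.3%) were higher and 757 (15.6%) were lower in Ebf2-EGFP+ cells, by limma on log2(FPKM + 1) at an adjusted p under 0.05. Of these, 385 were higher and 292 were lower by at least 2-fold, and the median log2 change over all listed coding genes was 0.0322. Across genes, log2(FPKM + 1) correlated at 0.9909 between the E13.5 libraries, at 0.9859 between the E15.5 libraries and at 0.9188 to 0.95 between stages. Genes are not independent replicates, and these values describe the libraries. Each ± is the standard error of the fit with n = 2 libraries per stage, or, for a difference between populations, of the fit of all 12 libraries. A fold is on the log2(FPKM + 1) scale, which understates the change of low genes. The p-values rest on the spread between the libraries of a group, drawn toward a trend over all listed features. For coding genes that trend weighed more (4.823 prior against 2 residual degrees of freedom). The calls depended on single libraries. Without replicate 1 of E13.5, 0 genes passed at the adjusted threshold and 1535 had an unadjusted p under 0.05, against 2339 with all 4 libraries. With replicate 2 of E13.5 left out, 238 genes were called higher and 466 lower, and without replicate 2 of E15.5, 893 and 502. The stages did not overlap for any of the 1794 called genes. This was common beyond the called genes too. Of all 4859 listed coding genes, 1951 had both E15.5 libraries above both E13.5 libraries and 1621 had both below.

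Most of the listed CR neuron markers rose. Of the 12 markers, all in the table, 10 were higher at E15.5 and 2, Lhx1 and Ebf2, were not called, against 21.3% of listed genes called higher. The list was chosen with earlier results of these data known, and the study named Nhlh2 a CR gene from these same libraries. This comparison is thus a description and not a test. The median log2 change of the list was 1.77. The 12 markers summed to 235 and 296 FPKM at E13.5 and 725 and 1370.0 FPKM at E15.5, and to 15.8 to 37.8 FPKM in the 4 Ebf2-EGFP- libraries of these stages, so the sorted cells carried CR transcripts at both stages. Reln (chr5:21884454-22344702, minus strand), which encodes reelin, was at 125 and 187 FPKM in the E13.5 libraries and at 399 and 925 FPKM in the E15.5 libraries. Both E15.5 libraries lay above both E13.5 libraries, and the E15.5 libraries were the farther apart (log2 change 1.98 ± 0.39, adjusted p = 0.0115). Ndnf (chr6:65671590-65712326, plus strand), which encodes a secreted neuron-derived neurotrophic factor and marks neurons of the outermost layer, was at 0.251 and 1.36 FPKM at E13.5 and at 18.0 and 76.0 FPKM at E15.5. It was close to the bottom of the range in both E13.5 libraries and had the largest rise of all listed genes (log2 change 4.47 ± 0.63, adjusted p = 0.00513). Kcnip2 (chr19:45791839-45816061, minus strand), a calcium-binding subunit of A-type potassium channels, rose from 2.11 and 2.40 FPKM at E13.5 to 18.4 and 35.2 FPKM at E15.5 (log2 change 3.03 ± 0.31, adjusted p = 0.00346). Nxph3 (chr11:95509845-95514570, minus strand), a secreted ligand of alpha-neurexins, rose from 16.7 and 26.3 FPKM at E13.5 to 93.5 and 56.9 FPKM at E15.5 (log2 change 1.75 ± 0.29, adjusted p = 0.00714). The E15.5 libraries were not in the same order for each marker: replicate 2 was the higher one for Reln, Ndnf and Kcnip2 and the lower one for Nxph3.

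Among the transcription factors of the list, Lhx5, a LIM homeodomain factor of hem-derived cells, rose from 4.06 and 3.44 to 20.8 and 22.6 FPKM (log2 change 2.26 ± 0.19, adjusted p = 0.00243), and its E15.5 libraries lay close together. Trp73, the p53 family member on which CR neurons depend, rose from 12.9 and 11.98 to 41.9 and 54.6 FPKM (log2 change 1.86 ± 0.18, adjusted p = 0.00286). Nhlh2, a bHLH factor, rose from 26.8 and 24.8 to 40.0 and 63.7 FPKM (log2 change 0.95 ± 0.23, adjusted p = 0.0195), and Ebf3, a relative of Ebf2, rose from 10.3 and 9.36 to 13.9 and 20.0 FPKM (log2 change 0.71 ± 0.21, adjusted p = 0.0384). These smaller changes still left both E15.5 libraries above both E13.5 libraries. Calb2, which encodes calretinin, rose from 16.3 and 13.2 to 40.8 and 56.5 FPKM (log2 change 1.64 ± 0.20, adjusted p = 0.00399), and Cacna2d2, an auxiliary subunit of voltage-gated calcium channels, rose from 11.2 and 10.6 to 31.1 and 51.6 FPKM (log2 change 1.79 ± 0.24, adjusted p = 0.00499). Lhx1, a further LIM homeodomain factor, was at 2.83 and 1.80 FPKM at E13.5 and 3.90 and 3.16 FPKM at E15.5 (log2 change 0.46 ± 0.24, adjusted p = 0.170). Ebf2 (chr14:67233292-67430918, plus strand), the gene whose regulatory sequence drives the reporter, was at 6.66 and 4.32 FPKM at E13.5 and 2.83 and 5.14 FPKM at E15.5 (log2 change -0.40 ± 0.31, adjusted p = 0.340), and its stages overlapped. The CR transcripts thus rose in cells sorted by a reporter whose own gene was not called in either direction. When replicate 2 of E13.5 was left out, the calls of Reln, Nhlh2 and Ebf3 were lost, at log2 changes of 2.27, 0.891 and 0.653. The call of Reln was also lost without replicate 1 of E13.5 (log2 change 1.70), as were all calls. Without replicate 2 of E15.5 the call of Ebf3 was lost (log2 change 0.468).

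The genes with the largest rises included secreted proteins, an enzyme that degrades acetylcholine, a glutamate receptor and proteins of the synapse. The 15 largest rises are given here. Npy, which encodes neuropeptide Y, rose from 1.95 and 0.799 FPKM at E13.5 to 18.9 and 25.7 FPKM at E15.5 (log2 change 3.32 ± 0.30, adjusted p = 0.00286). It was below 2 FPKM in both E13.5 libraries, and it also marks interneurons, whose other markers are given below. Gdf5, a secreted ligand of the BMP family, rose from 0.208 and 0.150 to 5.69 and 12.9 FPKM (log2 change 3.03 ± 0.34, adjusted p = 0.00393), and Igfbp3, a secreted binding protein of insulin-like growth factors, rose from 1.98 and 3.26 to 28.6 and 26.4 FPKM (log2 change 3.0 ± 0.23, adjusted p = 0.00234). Both were low before: Gdf5 was near 0 in both E13.5 libraries. Dkk3, a secreted member of the Dickkopf family, rose from 1.44 and 1.38 to 9.05 and 23.4 FPKM (log2 change 2.70 ± 0.40, adjusted p = 0.00581), and Fibcd1, a membrane protein with a fibrinogen domain, rose from 0.601 and 1.57 to 11.4 and 14.99 FPKM (log2 change 2.80 ± 0.29, adjusted p = 0.00350). Ache, which encodes acetylcholinesterase, rose from 0.566 and 0.569 to 7.18 and 15.7 FPKM (log2 change 2.90 ± 0.34, adjusted p = 0.00393). Grm3, a group II metabotropic glutamate receptor, rose from 0.278 and 0.254 to 5.82 and 9.92 FPKM (log2 change 2.77 ± 0.26, adjusted p = 0.00286), and Clstn2, a synaptic cadherin-like protein, rose from 10.5 and 18.5 to 65.7 and 155 FPKM (log2 change 2.77 ± 0.41, adjusted p = 0.00581). For Ache, Dkk3 and Clstn2 the upper E15.5 library was more than 2-fold above the lower one, while the E13.5 libraries of Ache and Dkk3 were nearly equal.

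Dync1i1, an intermediate chain of the dynein motor found mainly in neurons, rose from 23.6 and 28.4 to 134 and 188 FPKM (log2 change 2.57 ± 0.20, adjusted p = 0.00234) and was the most abundant of the 15 at E15.5. Crym, a thyroid hormone-binding protein, rose from 10.9 and 10.7 to 85.5 and 49.9 FPKM (log2 change 2.49 ± 0.25, adjusted p = 0.00346), and Syt6, a synaptotagmin, rose from 2.12 and 4.41 to 27.9 and 17.1 FPKM (log2 change 2.48 ± 0.33, adjusted p = 0.00499). Car10, a carbonic anhydrase-related protein that binds neurexins, rose from 1.01 and 1.15 to 5.76 and 18.7 FPKM (log2 change 2.47 ± 0.46, adjusted p = 0.00992), with the upper E15.5 library more than 3-fold above the lower. Kcnip2 and Ndnf, given above, also belong to the 15. The remaining one, Hbb-b1, encodes an adult beta-globin chain of red blood cells: it was at 0.000845 and 4.401 FPKM at E13.5 and at 7.41 and 27.9 FPKM at E15.5 (log2 change 2.75 ± 0.84, adjusted p = 0.0420). Its level in the Ebf2-EGFP- cells was far higher, 118 and 90.8 FPKM at E13.5 and 196 and 1196 FPKM at E15.5, with the highest value in replicate 2 of E15.5 in both populations. Without replicate 2 of E15.5 its call was lost, as it was with median-of-ratios scaling (adjusted p = 0.0525). The part of red blood cells in this rise was not tested, and globin genes are near-identical copies whose reads can be split between them. Dync1i1, Clstn2 and Crym also rose in Ebf2-EGFP- cells, with log2 changes of 3.79, 3.52 and 2.32. Their difference between populations was not called by limma with all 12 libraries (adjusted p = 0.0802, 0.440 and 0.809), nor was that of Hbb-b1. With the replicate block the change of Dync1i1 and Clstn2 was called smaller in Ebf2-EGFP+ cells. For the rest of the 15 the change was called larger in Ebf2-EGFP+ cells.

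The largest falls were in genes of newborn and migrating neurons, in a Notch ligand, in cell cycle genes and in guidance molecules. The 15 largest falls are given here. Rnd3 (chr2:51130438-51149111, minus strand), an atypical small GTPase that acts in radial migration, fell from 72.0 and 53.5 FPKM at E13.5 to 7.37 and 5.69 FPKM at E15.5 (log2 change -3.08 ± 0.20, adjusted p = 0.00234). Its relative Rnd2 (chr11:101464999-101471853, plus strand), a target of Neurog2 in migrating neurons, fell from 604 and 492 FPKM at E13.5 to 106 and 57.6 FPKM at E15.5 (log2 change -2.79 ± 0.29, adjusted p = 0.00350). Both were abundant at E13.5, and for both the E15.5 libraries lay far below the E13.5 libraries. Cxcr7, the atypical receptor for the chemokine Cxcl12, fell from 20.6 and 22.2 to 2.40 and 1.40 FPKM (log2 change -2.97 ± 0.23, adjusted p = 0.00234). Eomes (chr9:118478212-118486132, plus strand), the T-box factor of intermediate progenitors (also called Tbr2), fell from 54.6 and 38.7 to 9.24 and 4.46 FPKM (log2 change -2.65 ± 0.32, adjusted p = 0.00393). Nhlh1, a bHLH factor of newborn neurons, fell from 69.5 and 57.5 to 19.9 and 4.97 FPKM (log2 change -2.52 ± 0.51, adjusted p = 0.0124), with replicate 2 of E15.5 far below replicate 1. Sema6d, a transmembrane semaphorin, fell from 42.1 and 40.3 to 7.15 and 4.89 FPKM (log2 change -2.61 ± 0.20, adjusted p = 0.00234), and Epha3, an ephrin receptor, fell from 60.7 and 53.4 to 9.65 and 9.88 FPKM (log2 change -2.43 ± 0.15, adjusted p = 0.00234). The E15.5 libraries agreed closely for Epha3.

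The other falls were led by genes of signalling and proliferation. Dll1, a Notch ligand, fell from 38.7 and 24.2 to 5.80 and 3.82 FPKM (log2 change -2.47 ± 0.28, adjusted p = 0.00388), and Shisa2, which holds back Wnt and FGF receptors in the endoplasmic reticulum, fell from 13.52 and 10.7 to 1.22 and 1.14 FPKM (log2 change -2.58 ± 0.22, adjusted p = 0.00261). Ccnb1, which encodes cyclin B1, fell from 17.4 and 9.97 to 1.43 and 1.28 FPKM (log2 change -2.59 ± 0.29, adjusted p = 0.00371), and Top2a, the topoisomerase of dividing cells, fell from 21.04 and 11.8 to 2.17 and 1.74 FPKM (log2 change -2.51 ± 0.29, adjusted p = 0.00393). Ube2c, a ubiquitin-conjugating enzyme of the anaphase-promoting complex, fell from 30.8 and 20.6 to 4.04 and 3.85 FPKM (log2 change -2.41 ± 0.23, adjusted p = 0.00286), and Hmgb2, a chromatin protein of proliferating cells, fell from 46.2 and 26.4 to 6.88 and 6.25 FPKM (log2 change -2.25 ± 0.26, adjusted p = 0.00393). For each of these cell cycle genes replicate 1 of E13.5 held more than replicate 2. Crabp2, a cellular retinoic acid-binding protein, fell from 26.5 and 12.1 to 3.66 and 1.96 FPKM (log2 change -2.35 ± 0.39, adjusted p = 0.00714), and Mfap4, a protein of extracellular microfibrils, fell from 58.5 and 40.5 to 13.8 and 4.93 FPKM (log2 change -2.41 ± 0.41, adjusted p = 0.00777).

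**Figure D1:**
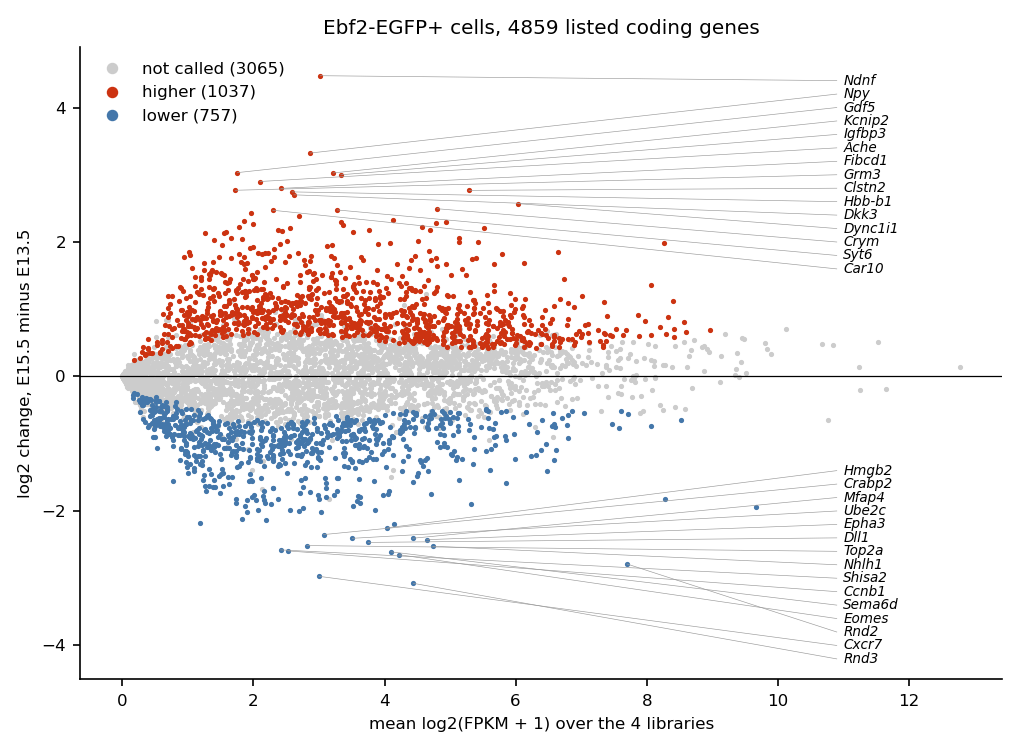
Log2 change from E13.5 to E15.5 in Ebf2-EGFP+ cells against mean log2(FPKM + 1) over the 4 libraries for the 4859 listed coding genes, with genes called higher in red, called lower in blue and not called in grey. Names at the right mark the 15 largest rises and the 15 largest falls, from Ndnf at 4.47 to Rnd3 at -3.08.

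The promoter letters of 4 of these genes are shown because they stand for the sides of the change: a reelin gene and a channel gene that rose, and a progenitor factor and a cell cycle gene that fell. Each is the 250 bases before the RefSeq transcript start on build GRCm38, 5′ to 3′ on the strand of the gene, in lower case, with CCAAT or its reverse ATTGG and TTTGAA or its reverse TTCAAA in capitals.
Reln, chr5:22344706-22344955, minus strand: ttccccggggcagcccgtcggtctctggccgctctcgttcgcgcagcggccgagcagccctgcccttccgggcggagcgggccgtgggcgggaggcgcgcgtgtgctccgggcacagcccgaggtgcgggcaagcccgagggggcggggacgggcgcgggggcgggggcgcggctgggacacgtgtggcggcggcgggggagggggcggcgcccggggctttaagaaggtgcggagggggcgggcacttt
Kcnip2, chr19:45816064-45816313, minus strand: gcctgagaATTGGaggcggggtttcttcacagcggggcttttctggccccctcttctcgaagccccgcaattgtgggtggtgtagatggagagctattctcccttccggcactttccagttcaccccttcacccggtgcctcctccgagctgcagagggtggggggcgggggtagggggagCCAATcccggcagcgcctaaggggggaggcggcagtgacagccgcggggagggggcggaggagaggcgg
Eomes, chr9:118477939-118478188, plus strand: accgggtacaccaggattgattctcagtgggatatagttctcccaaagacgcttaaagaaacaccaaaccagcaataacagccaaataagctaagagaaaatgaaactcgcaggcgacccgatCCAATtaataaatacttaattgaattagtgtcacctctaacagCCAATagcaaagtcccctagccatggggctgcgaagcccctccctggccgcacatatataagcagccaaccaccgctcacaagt
Top2a, chr11:99024190-99024439, minus strand: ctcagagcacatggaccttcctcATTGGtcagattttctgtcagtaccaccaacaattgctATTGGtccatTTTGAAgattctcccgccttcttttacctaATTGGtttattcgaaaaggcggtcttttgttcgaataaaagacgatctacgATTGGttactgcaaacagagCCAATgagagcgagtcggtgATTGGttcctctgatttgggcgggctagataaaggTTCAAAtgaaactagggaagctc
The Reln window held none of these letters, the Kcnip2 and Eomes windows held CCAAT in either direction 2 times each, and the Top2a window held it 6 times. These 4 were picked from a larger set of windows. Among the others, those of Trp73, Igfbp3 and Grm3, which rose, held it 0 times and that of Npy, which rose, 1 time. Of genes that fell, Epha3 held it 0 times, Rnd3 1 time and Ccnb1 2 times. CCAAT is the core of the box bound by NF-Y, TTTGAA is the letters of the cell cycle homology region, CAGCTG is an E-box, TAATTA is a homeodomain core and TCCC and GGGA with any 2 bases between them is the palindrome of EBF factors. Each was searched on both strands over the same 250 bases, without regard to whether matches of 2 motifs overlapped. A window was found for 3558 of the 4859 listed genes, among them 741 called higher and 555 called lower. CCAAT was in 47.0% of the windows of genes called lower, in 28.1% of those called higher, in 35.8% of listed genes and in 34.5% of all 27025 promoters. TTTGAA was in 14.8% of the windows of genes called lower, 7.96% of those called higher, 9.98% of listed genes and 16.3% of all promoters. CAGCTG went the other way, with 15.4% of genes called higher, 10.5% of those called lower, 13.3% of listed genes and 12.8% of all promoters. The EBF palindrome was rare, in 1.48% (11 windows) of genes called higher, 0.721% (4 windows) of those called lower, 1.04% of listed genes and 0.788% of all promoters, and TAATTA was in 1.35%, 2.16%, 1.91% and 4.9% in the same order. These shares are a description of letters and were not tested.

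Most genes of proliferating cells and of newborn neurons fell, and their summed levels were below those of Ebf2-EGFP- cells of the same stage. Of 17 cell cycle genes, all in the table, 13 fell, 0 rose and 4 were not called, against 15.6% of listed genes called lower, and the median log2 change was -1.55. Their sum was 238 and 157 FPKM at E13.5 and 85.5 and 86.5 FPKM at E15.5, and 258 to 1395 FPKM in the Ebf2-EGFP- libraries. At E13.5 replicate 1 held more than replicate 2. Ccnb1 and Top2a, given above, led the list with Mki67, the gene of the proliferation marker Ki-67, which fell from 10.7 and 6.92 to 1.13 and 1.24 FPKM (log2 change -2.14 ± 0.25, adjusted p = 0.00393). Of 12 genes of intermediate progenitors and newborn neurons, 10 fell, 0 rose and 2 were not called (median log2 change -1.26). Their sums were 394 and 275 FPKM at E13.5 and 180.1 and 104 FPKM at E15.5. In Ebf2-EGFP- cells they were 809 and 623 FPKM at E13.5 and 590 and 360.3 FPKM at E15.5, also lower at E15.5. After Eomes and Dll1, the next was Neurog2, a proneural bHLH factor, which fell from 29.2 and 16.2 to 7.22 and 3.83 FPKM (log2 change -1.85 ± 0.35, adjusted p = 0.00969). Of 14 radial glia markers, 6 fell, 1 rose and 7 were not called (median log2 change -0.88). Their sums were 275 and 241 FPKM at E13.5 and 184 and 121 FPKM at E15.5. In Ebf2-EGFP- cells they were 1936 and 1285 FPKM at E13.5 and 927 and 514 FPKM at E15.5, also lower at E15.5. Sox2, a transcription factor of neural stem cells, fell from 10.0 and 5.09 to 3.37 and 1.42 FPKM (log2 change -1.33 ± 0.38, adjusted p = 0.0352), Prom1, a membrane protein of progenitors (CD133), fell from 8.51 and 6.05 to 1.9995 and 2.71 FPKM (log2 change -1.30 ± 0.25, adjusted p = 0.0104), and Sox9, a factor of glial and stem cells, fell from 6.72 and 5.53 to 2.88 and 2.12 FPKM (log2 change -1.03 ± 0.23, adjusted p = 0.0161). Slc1a3, a glutamate transporter of glia, was called higher, from 1.69 and 1.19 to 2.71 and 2.68 FPKM (log2 change 0.60 ± 0.20, adjusted p = 0.0493). This call was lost with a pseudocount of 0.1 (adjusted p = 0.0552), with the replicate number as a block (adjusted p = 0.0638) and without any 1 of the 4 libraries (adjusted p = 0.110 to 0.199). Vim, an intermediate filament gene with the highest level of the list, was at 132 and 125 FPKM at E13.5 and 97.0 and 47.8 FPKM at E15.5 (log2 change -0.90 ± 0.30, adjusted p = 0.0558) and was not called. Without replicate 2 of E13.5, 10 cell cycle genes, 5 newborn neuron genes and 3 radial glia markers were called lower. The part of sorted progenitors in these falls was not tested.

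Markers of cortical plate neurons were abundant in the sorted cells and mostly not called. Of 17 markers, 2 rose, 1 fell and 14 were not called (median log2 change 0.06). This is 11.8% higher and 5.88% lower, against 21.3% and 15.6% of all listed genes. The sum of the 17 markers was 1659 and 1702 FPKM at E13.5 and 1778 and 1233 FPKM at E15.5, and 1111 to 1694 FPKM in the Ebf2-EGFP- libraries. Replicate 2 of E15.5, which had the higher sum of CR markers, had the lower sum of these. Tle4, a corepressor of deep-layer neurons, rose from 16.7 and 19.7 to 59.0 and 48.9 FPKM (log2 change 1.51 ± 0.17, adjusted p = 0.00371), and Mef2c, a MADS-box factor, rose from 27.7 and 25.8 to 52.6 and 67.7 FPKM (log2 change 1.13 ± 0.17, adjusted p = 0.00581). Tbr1, a T-box factor of early-born glutamatergic neurons, fell from 225 and 228 to 170.1 and 111 FPKM (log2 change -0.71 ± 0.22, adjusted p = 0.0416), a call that was lost with median-of-ratios scaling (adjusted p = 0.0508). The most abundant member was Neurod6, a bHLH factor of postmitotic glutamatergic neurons, at 472 and 436 FPKM at E13.5 and 369 and 283 FPKM at E15.5 (log2 change -0.49 ± 0.20, adjusted p = 0.0921). Of 5 subplate markers in the table, 2 (40%) rose, 0 fell and 3 were not called (median log2 change 0.30), with sums of 62.9 and 60.5 FPKM at E13.5 and 75.4 and 38.4 FPKM at E15.5. Nr4a2, a nuclear receptor of subplate cells, rose from 3.26 and 2.51 to 13.9 and 9.02 FPKM (log2 change 1.66 ± 0.26, adjusted p = 0.00644), and Cdh18, a cadherin, rose from 0.288 and 0.347 to 1.28 and 1.98 FPKM (log2 change 0.98 ± 0.16, adjusted p = 0.00722). Nxph4, the most abundant subplate marker, was at 58.1 and 57.0 FPKM at E13.5 and 59.5 and 26.0 FPKM at E15.5 (log2 change -0.53 ± 0.34, adjusted p = 0.253). What part cells other than CR neurons had in the changes given here was not tested.

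Markers of other cell types were low. Of all listed genes 21.3% were called higher and 15.6% lower. The shares called higher and lower were 13.3% and 6.67% for ganglionic eminence and interneuron markers and 14.3% and 42.9% for erythroid markers. They were 11.1% and 11.1% for meningeal and mural markers and 0% and 33.3% for oligodendrocyte lineage markers. Of 15 markers of the ganglionic eminences and interneurons, 2 rose, 1 fell and 12 were not called (median log2 change -0.00013), with sums of 22.1 and 15.54 FPKM at E13.5 and 32.9 and 38.4 FPKM at E15.5 against 185 to 252 FPKM in Ebf2-EGFP- cells. Npy made up most of the sum at E15.5, while Gad1, the GABA-synthesizing enzyme that defines these cells, was at 0.225 and 0.198 FPKM at E13.5 and 0.375 and 0.480 FPKM at E15.5 (log2 change 0.24 ± 0.09, adjusted p = 0.0859). Lhx6, a LIM homeodomain factor of interneurons, rose from 0.376 and 0.272 to 0.891 and 1.46 FPKM (log2 change 0.71 ± 0.16, adjusted p = 0.0156). Of 7 erythroid markers, Hbb-b1 rose, 3 fell and 3 were not called, with sums of 15.1 and 9.97 FPKM at E13.5 and 9.29 and 29.7 FPKM at E15.5 against 306 to 1422 FPKM in Ebf2-EGFP- cells. The 3 that fell were embryonic globins: Hbb-y fell from 3.33 and 0.992 to 0 and 0 FPKM (log2 change -1.56 ± 0.32, adjusted p = 0.0133), Hba-x fell from 0.963 and 1.21 to 0 and 0 FPKM (log2 change -1.06 ± 0.11, adjusted p = 0.00346) and Hbb-bh1 fell from 0.470 and 0.422 to 0 and 0 FPKM (log2 change -0.53 ± 0.08, adjusted p = 0.00581), and all were listed at 0 in both E15.5 libraries. The call of Hbb-bh1 was lost with the 6 Ebf2-EGFP+ libraries (adjusted p = 0.368) and with all 12 libraries (adjusted p = 0.329), and that of Hba-x with all 12 (adjusted p = 0.0512). Of 9 meningeal and mural markers, Rgs5, a gene of pericytes, rose from 0.121 and 0.285 to 1.62 and 4.13 FPKM (log2 change 1.61 ± 0.30, adjusted p = 0.00980), Dcn, a matrix proteoglycan gene, fell from 0.636 and 0.690 to 0.270 and 0.0801 FPKM (log2 change -0.51 ± 0.11, adjusted p = 0.0162) and 7 were not called, with sums of 2.204 and 1.61 FPKM at E13.5 and 2.78 and 7.20 FPKM at E15.5 against 7.75 to 11.9 FPKM in Ebf2-EGFP- cells. Aif1, the only 1 of 12 microglia and macrophage markers in the table, rose from 0.933 and 0.673 to 2.92 and 2.87 FPKM (log2 change 1.12 ± 0.17, adjusted p = 0.00636). In Ebf2-EGFP- cells it was lower, at 0.111 and 0.188 FPKM at E13.5 and 0.626 and 0.773 FPKM at E15.5. Of 3 endothelial markers 0 were called by limma, with 1, Cdh5, at an unadjusted p under 0.05 and lower at E15.5, with sums of 2.32 and 0.692 FPKM at E13.5 and 0.483 and 0.601 FPKM at E15.5 against 1.77 to 2.94 FPKM in Ebf2-EGFP- cells, and the most abundant was Kdr, a receptor of VEGF, at 0.996 and 0.168 FPKM at E13.5 and 0.197 and 0.187 FPKM at E15.5 (log2 change -0.36 ± 0.23, adjusted p = 0.251). Of 3 oligodendrocyte lineage markers Olig2, a bHLH factor, fell from 0.480 and 0.221 to 0.0290 and 0.0906 FPKM (log2 change -0.34 ± 0.11, adjusted p = 0.0489). Rn45s, the ribosomal RNA precursor, was named after its values were seen: it fell from 1971 and 1275 to 607 and 281 FPKM (log2 change -1.94 ± 0.40, adjusted p = 0.0126), with replicate 1 the higher one at both stages. Its part in the other changes was not tested.

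Among genes that pattern the birthplaces of CR neurons, Zic1, Zic4 and Zic5 rose and Lhx9, Nr2f1 and Lhx2 fell. Of 18 genes of the hem, septum and thalamic eminence in the table, 6 rose, 3 fell and 9 were not called (median log2 change 0.27). This is 33.3% higher and 16.7% lower, against 21.3% and 15.6% of all listed genes, so the share that fell was near that of all listed genes. Those that rose were mostly zinc-finger factors of the Zic family, which mark the hem, the septum and the meninges. Zic1 rose from 9.34 and 6.64 to 18.0 and 17.5 FPKM (log2 change 1.08 ± 0.20, adjusted p = 0.00996), Zic4 rose from 0.364 and 0.318 to 1.43 and 1.89 FPKM (log2 change 0.98 ± 0.14, adjusted p = 0.00561) and Zic5 rose from 1.18 and 0.922 to 2.93 and 2.82 FPKM (log2 change 0.92 ± 0.18, adjusted p = 0.0110), while Zic2, Nr2f2 and Barhl2 rose with log2 changes of 0.71, 0.90 and 0.88 and were named after their values were seen. The E15.5 libraries were nearly equal for Zic1 and Zic5. The genes that fell were 3 transcription factors of which Lhx2 and Nr2f1 pattern the cortex itself. Lhx9, a LIM homeodomain factor of the thalamic eminence and other regions, fell from 14.5 and 7.59 to 4.64 and 1.95 FPKM (log2 change -1.5 ± 0.40, adjusted p = 0.0267), Nr2f1, the nuclear receptor COUP-TFI, fell from 54.2 and 42.0 to 24.2 and 17.7 FPKM (log2 change -1.17 ± 0.21, adjusted p = 0.00828), and Lhx2, the selector of cortical against hem identity, fell from 132 and 116 to 78.2 and 48.2 FPKM (log2 change -1.0 ± 0.23, adjusted p = 0.0187). The signals that define the hem were near the bottom of the range at both stages: Wnt3a was at 0.115 and 0 FPKM at E13.5 and 0.0764 and 0.0133 FPKM at E15.5 (log2 change -0.02 ± 0.08, adjusted p = 0.896) and Wnt8b at 0.446 and 0.0445 FPKM at E13.5 and 0.143 and 0.0639 FPKM at E15.5 (log2 change -0.16 ± 0.15, adjusted p = 0.443), both named after their values were seen. With replicate 2 of E13.5 left out, 1 gene of the list was called higher and 2 lower.

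Of 29 synaptic vesicle and release genes in the table, 16 rose, 2 fell and 11 were not called, and the median log2 change was 0.50. This is 55.2% higher and 6.9% lower, against 21.3% and 15.6% of all listed genes. Their sum was 1111 and 1068 FPKM at E13.5 and 1486 and 1434 FPKM at E15.5. In Ebf2-EGFP- cells the sum was 400.4 and 518 FPKM at E13.5 and 873 and 950.4 FPKM at E15.5, so it was higher at E15.5 in both populations. Dnm3, a dynamin of membrane fission, rose from 7.54 and 8.91 to 20.96 and 25.1 FPKM (log2 change 1.38 ± 0.18, adjusted p = 0.00477), Rims3, an active zone protein, rose from 4.12 and 3.56 to 7.30 and 14.4 FPKM (log2 change 1.23 ± 0.31, adjusted p = 0.0239), and Syn1, which tethers vesicles, rose from 25.7 and 30.3 to 60.9 and 54.8 FPKM (log2 change 1.02 ± 0.15, adjusted p = 0.00581). Syngr3, Snap25 and Cplx1, a vesicle membrane protein, a SNARE and a regulator of fusion, followed with log2 changes of 1.02, 1.02 and 0.98. These were chosen after their values were seen. The 2 that fell were Syt4, a synaptotagmin that responds poorly to calcium, which fell from 74.9 and 51.3 to 32.0 and 40.9 FPKM (log2 change -0.76 ± 0.22, adjusted p = 0.0340), and Cplx2, the sister gene of Cplx1, which fell from 76.1 and 76.3 to 58.3 and 42.3 FPKM (log2 change -0.61 ± 0.18, adjusted p = 0.0384). Cplx1 and Cplx2 thus moved in opposite directions: Cplx1 was at 36.4 and 38.8 FPKM at E13.5 and 74.2 and 75.7 FPKM at E15.5 (log2 change 0.98 ± 0.13, adjusted p = 0.00500). When replicate 2 of E13.5 was left out, 4 genes of the list were called higher.

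Of 16 glutamate receptor genes, 10 rose, 1 fell and 5 were not called (median log2 change 0.72). This is 62.5% higher and 6.25% lower, against 21.3% and 15.6% of all listed genes. Their sum was 123 and 132 FPKM at E13.5 and 204 and 199 FPKM at E15.5, and in Ebf2-EGFP- cells 54.0 and 68.5 FPKM at E13.5 and 103 and 134 FPKM at E15.5. After Grm3, the largest rises were in Grin1, the obligatory NMDA receptor subunit, which rose from 6.92 and 7.28 to 18.2 and 22.8 FPKM (log2 change 1.4 ± 0.18, adjusted p = 0.00479), and in Grm5, a group I metabotropic receptor, which rose from 3.79 and 3.03 to 8.61 and 7.63 FPKM (log2 change 1.05 ± 0.21, adjusted p = 0.0125). Both stages were well apart for Grin1, with the upper E15.5 library about 3-fold above the E13.5 libraries. Grik2, a kainate receptor subunit, was the member that fell, from 12.9 and 9.49 to 4.30 and 4.07 FPKM (log2 change -1.22 ± 0.22, adjusted p = 0.00866). Of 12 GABA and glycine receptor genes, 5 rose, 0 fell and 7 were not called (median log2 change 0.59), which is 41.7% higher and 0% lower. Their sum was 208 and 183 FPKM at E13.5 and 264 and 289.6 FPKM at E15.5, and in Ebf2-EGFP- cells 58.5 and 74.9 FPKM at E13.5 and 134 and 166 FPKM at E15.5. The sums of both receptor lists were higher at E15.5 in both populations. Gabbr2, a subunit of the metabotropic GABA receptor, rose from 2.46 and 3.33 to 10.4 and 9.65 FPKM (log2 change 1.51 ± 0.22, adjusted p = 0.00547), Gabrb2, a subunit of GABA-gated chloride channels, rose from 4.35 and 3.51 to 8.89 and 11.1 FPKM (log2 change 1.16 ± 0.22, adjusted p = 0.0101), and its relative Gabrb1 rose from 0.793 and 0.934 to 2.63 and 1.81 FPKM (log2 change 0.78 ± 0.19, adjusted p = 0.0202). Of 3 listed chloride transporter genes 0 were called by limma and 1, Slc12a2, had an unadjusted p under 0.05 (median log2 change -0.20). Slc12a2, the importer NKCC1 that keeps chloride high in young neurons, was at 7.93 and 8.52 FPKM at E13.5 and 5.57 and 4.87 FPKM at E15.5 (log2 change -0.57 ± 0.20, adjusted p = 0.0617) and was named after its values were seen. Without replicate 2 of E13.5, 6 glutamate and 1 GABA or glycine receptor genes were called higher.

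**Figure D2:**
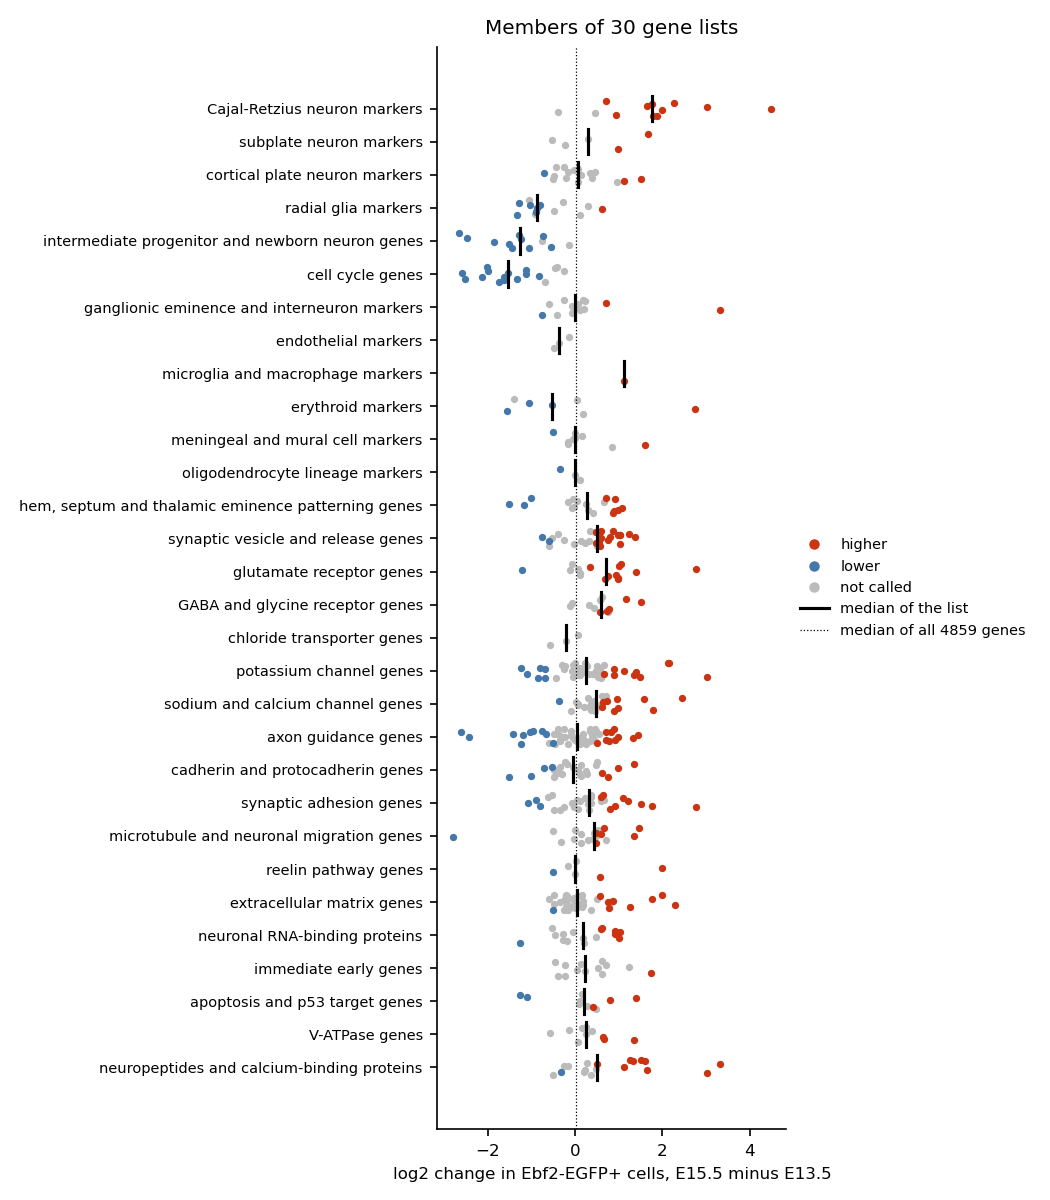
Log2 change from E13.5 to E15.5 in Ebf2-EGFP+ cells of the members of 30 gene lists, 1 point per gene, red where called higher, blue where called lower and grey where not called. The black bar of a list is its median, from 1.77 for the CR markers to -1.55 for the cell cycle genes, and the dotted line is the median of all listed coding genes, 0.0322.

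Of 42 potassium channel genes, 10 rose, 6 fell and 26 were not called (median log2 change 0.25). This is 23.8% higher and 14.3% lower, near the 21.3% and 15.6% of all listed genes. After Kcnip2 the largest rises were in Kcnab1, a beta subunit of voltage-gated channels, which rose from 0.420 and 0.418 to 6.07 and 4.58 FPKM (log2 change 2.15 ± 0.20, adjusted p = 0.00286), and Kcnk1, a channel of the leak family, which rose from 0.509 and 0.285 to 5.51 and 4.75 FPKM (log2 change 2.14 ± 0.19, adjusted p = 0.00286). Both were under 1 FPKM in each E13.5 library. Kcnn2, a small-conductance calcium-activated channel, fell from 20.0 and 21.1 to 8.69 and 7.74 FPKM (log2 change -1.23 ± 0.17, adjusted p = 0.00499), its relative Kcnn3 fell from 4.11 and 5.14 to 2.003 and 1.28 FPKM (log2 change -1.10 ± 0.24, adjusted p = 0.0143), and Kcnf1, a silent subunit, fell from 2.24 and 1.40 to 0.353 and 0.768 FPKM (log2 change -0.85 ± 0.21, adjusted p = 0.0210). Of 25 sodium and calcium channel genes, 9 rose, 1 fell and 15 were not called (median log2 change 0.47), which is 36% higher and 4% lower. Their sum was 417 and 414 FPKM at E13.5 and 666 and 667 FPKM at E15.5, and in Ebf2-EGFP- cells 189.5 and 209 FPKM at E13.5 and 347 and 386 FPKM at E15.5. Cacng5, an auxiliary subunit of AMPA receptors, rose from 0.561 and 0.813 to 4.33 and 14.5 FPKM (log2 change 2.44 ± 0.47, adjusted p = 0.0104), and Cacna2d3, a sister of Cacna2d2, rose from 6.93 and 8.15 to 20.97 and 28.8 FPKM (log2 change 1.59 ± 0.21, adjusted p = 0.00462). Of 18 neuropeptide and calcium-binding protein genes, 9 rose, 1 fell and 8 were not called (median log2 change 0.49), which is 50% higher and 5.56% lower. Npy, Kcnip2 and Calb2 led this list. Tac1, which encodes substance P, fell from 0.291 and 0.210 to 0 and 0 FPKM (log2 change -0.32 ± 0.08, adjusted p = 0.0198), and Calb2 stayed far above Calb1, the gene of calbindin, which rose from 0.421 and 0.265 to 0.645 and 1.22 FPKM (log2 change 0.51 ± 0.16, adjusted p = 0.0489) and was named after its values were seen. With replicate 2 of E13.5 left out, 4 potassium channel, 2 sodium and calcium channel and 6 neuropeptide or calcium-binding protein genes were called higher.

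Of 51 axon guidance genes, 10 rose, 10 fell and 31 were not called (median log2 change 0.04). This is 19.6% higher and 19.6% lower, near the 21.3% and 15.6% of all listed genes, and the values below describe single members. The risers were led by Unc5b, a netrin receptor of the repulsive kind, which rose from 4.16 and 3.29 to 9.12 and 15.3 FPKM (log2 change 1.45 ± 0.28, adjusted p = 0.0103), Ephb1, an ephrin receptor, which rose from 16.7 and 16.4 to 43.6 and 42.6 FPKM (log2 change 1.33 ± 0.14, adjusted p = 0.00370), and Sema6b, a transmembrane semaphorin, which rose from 12.7 and 12.3 to 29.3 and 22.8 FPKM (log2 change 0.99 ± 0.18, adjusted p = 0.00861). After Sema6d and Epha3, the largest fall was in Plxna4, a semaphorin receptor, which fell from 42.5 and 38.1 to 11.7 and 17.8 FPKM (log2 change -1.41 ± 0.21, adjusted p = 0.00581). Within 1 family members thus went opposite ways, as Ephb1 and Epha3 or Sema6b and Sema6d did. Of 25 cadherin and protocadherin genes, 4 rose, 4 fell and 17 were not called (median log2 change -0.04), which is 16% higher and 16% lower and near the same shares. Cdh4, a classical cadherin, rose from 13.47 and 14.999 to 29.1 and 49.1 FPKM (log2 change 1.35 ± 0.25, adjusted p = 0.00910), Pcdh8, a protocadherin, rose from 12.4 and 11.7 to 23.8 and 18.5 FPKM (log2 change 0.75 ± 0.18, adjusted p = 0.0202), and Cdh18 is given above. Celsr1, a planar polarity cadherin, fell from 12.9 and 13.9 to 4.95 and 3.29 FPKM (log2 change -1.51 ± 0.23, adjusted p = 0.00582), and the protocadherins Pcdh18 and Pcdh10 fell with log2 changes of -1.0 and -0.71. When replicate 2 of E13.5 was left out, 1 guidance gene was called higher and 6 lower, and 1 cadherin gene was called higher and 2 lower.

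Of 30 synaptic adhesion genes in the table, 9 rose, 3 fell and 18 were not called (median log2 change 0.31). This is 30% higher and 10% lower, against 21.3% and 15.6% of all listed genes, of which more also rose than fell. Clstn2 and Nxph3 led, and Cntnap5b, a contactin-associated protein, rose from 0.447 and 0.518 to 3.02 and 3.48 FPKM (log2 change 1.52 ± 0.17, adjusted p = 0.00370). Its relative Cntnap2 fell from 66.7 and 51.7 to 29.4 and 25.2 FPKM (log2 change -1.08 ± 0.18, adjusted p = 0.00694), and the adhesion and guidance proteins Flrt2 and Flrt3 fell with log2 changes of -0.89 and -0.81. Of 19 microtubule and migration genes, 6 rose, Rnd2 fell and 12 were not called (median log2 change 0.43), which is 31.6% higher and 5.26% lower. Stmn4, a tubulin-binding stathmin, rose from 70.4 and 57.1 to 152 and 203 FPKM (log2 change 1.45 ± 0.19, adjusted p = 0.00483), Mapt, which encodes tau, rose from 164 and 169 to 442 and 414 FPKM (log2 change 1.36 ± 0.15, adjusted p = 0.00393), and Gap43, a growth cone protein, rose from 319.6 and 293 to 460.3 and 511 FPKM (log2 change 0.66 ± 0.17, adjusted p = 0.0253). Dcx, the doublecortin gene of migrating neurons, stood at 246 and 259.7 FPKM at E13.5 and 216 and 283 FPKM at E15.5 (log2 change -0.03 ± 0.18, adjusted p = 0.900) with overlapping stages, and was named after its values were seen. Of 40 extracellular matrix genes, 8 rose, Dcn fell and 31 were not called (median log2 change 0.03), which is 20% higher and 2.5% lower. The testican genes Spock1 and Spock2, secreted proteoglycans, rose from 7.50 and 17.3 to 55.6 and 63.4 FPKM (log2 change 2.28 ± 0.33, adjusted p = 0.00572) and from 15.3 and 17.9 to 59.3 and 79.9 FPKM (log2 change 1.99 ± 0.19, adjusted p = 0.00286), and Sparcl1, a matricellular protein, rose from 13.6 and 14.5 to 42.1 and 58.9 FPKM (log2 change 1.76 ± 0.19, adjusted p = 0.00370). Without replicate 2 of E13.5, 5 adhesion, 2 microtubule and 4 matrix genes were called higher.

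In the reelin pathway the ligand rose and neither receptor was called. Of 6 members in the table, Reln and Dab1 rose, Itgb1 fell and 3 were not called (median log2 change 0.0071). This is 33.3% higher and 16.7% lower, against 21.3% and 15.6% of all listed genes. Dab1, the adaptor that is phosphorylated on reelin binding, rose from 76.8 and 92.5 to 133 and 117 FPKM (log2 change 0.56 ± 0.16, adjusted p = 0.0340), a call that was lost with median-of-ratios scaling (adjusted p = 0.0537), and Itgb1, an integrin subunit, fell from 31.9 and 29.1 to 19.9 and 22.2 FPKM (log2 change -0.51 ± 0.15, adjusted p = 0.0374). The receptor genes were Lrp8, at 28.1 and 29.3 FPKM at E13.5 and 28.9 and 29.4 FPKM at E15.5 (log2 change 0.02 ± 0.14, adjusted p = 0.915), and Vldlr, at 6.62 and 5.39 FPKM at E13.5 and 6.002 and 5.88 FPKM at E15.5 (log2 change -0.01 ± 0.21, adjusted p = 0.982), both named after their values were seen. With replicate 2 of E13.5 left out, 0 genes of the list were called higher and 0 lower.

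Of 16 neuronal RNA-binding proteins, 6 rose, 1 fell and 9 were not called (median log2 change 0.19). This is 37.5% higher and 6.25% lower, against 21.3% and 15.6% of all listed genes. Rbfox1, a splicing factor of mature neurons, rose from 21.8 and 25.5 to 51.8 and 45.8 FPKM (log2 change 1.02 ± 0.16, adjusted p = 0.00606), Celf4 rose from 46.6 and 41.2 to 104 and 75.3 FPKM (log2 change 1.0 ± 0.19, adjusted p = 0.00994) and Celf6 rose from 5.63 and 6.003 to 12.1 and 11.4 FPKM (log2 change 0.90 ± 0.18, adjusted p = 0.0123). Qk, a splicing factor of progenitors and glia, fell from 21.2 and 16.1 to 6.37 and 7.87 FPKM (log2 change -1.27 ± 0.21, adjusted p = 0.00703). Of 10 apoptosis and p53 target genes, 3 rose, 2 fell and 5 were not called (median log2 change 0.21), which is 30% higher and 20% lower. Bbc3, the pro-apoptotic BH3 protein Puma, rose from 6.70 and 6.43 to 22.5 and 15.7 FPKM (log2 change 1.39 ± 0.21, adjusted p = 0.00609), Ccng1, which encodes cyclin G1, rose from 8.75 and 6.95 to 12.3 and 16.6 FPKM (log2 change 0.80 ± 0.22, adjusted p = 0.0295), and Pmaip1, the BH3 protein Noxa, rose from 0.199 and 0.446 to 0.701 and 0.813 FPKM (log2 change 0.42 ± 0.13, adjusted p = 0.0424). Mdm2, the ubiquitin ligase of p53, fell from 32.4 and 25.9 to 11.503 and 11.6 FPKM (log2 change -1.26 ± 0.17, adjusted p = 0.00499), and Trp53inp1 fell from 25.1 and 20.0 to 10.2 and 9.49 FPKM (log2 change -1.11 ± 0.18, adjusted p = 0.00682), so the targets of p53 in the list did not move one way. Of 10 V-ATPase genes, 3 (30%) rose and 7 were not called (median log2 change 0.26), and Atp6v1g2, a subunit found mainly in neurons, rose from 7.74 and 4.94 to 16.3 and 18.5 FPKM (log2 change 1.35 ± 0.23, adjusted p = 0.00785), ahead of Atp6v0e2 and Atp6v0c at log2 changes of 0.67 and 0.64. Of 13 immediate early genes, which respond to activity and to dissociation, Fosl2 rose from 4.47 and 7.96 to 26.7 and 18.4 FPKM (log2 change 1.73 ± 0.29, adjusted p = 0.00740) and 12 were not called (median log2 change 0.23). Fos, named after its values were seen, was at 40.4 and 141 FPKM at E13.5 and 83.6 and 163 FPKM at E15.5 (log2 change 0.62 ± 0.56, adjusted p = 0.415), with replicate 2 the higher one at both stages.

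To ask which of these changes went beyond those of the cortex around the sorted cells, the change in Ebf2-EGFP+ cells was compared with the change over the same stages in Ebf2-EGFP- cells, in 1 fit of all 12 libraries. This comparison shares the 4 Ebf2-EGFP+ libraries with the results above. The log2 change was larger, that is more positive, in Ebf2-EGFP+ cells for 444 coding genes (9.14%) and smaller for 166 (3.42%), at an adjusted p under 0.05. A larger change can thus also be a smaller drop. Both populations of a stage carry the same replicate numbers, and with the number as a block 1115 genes (22.9%) were larger and 660 (13.6%) were smaller. The counts dropped to 86 and 39 without replicate 1 of the E13.5 Ebf2-EGFP- cells and reached 778 and 357 without replicate 2 of that group. Of the 12 CR markers 7 had a larger change and 0 a smaller one. Ndnf was at 0.212 and 0.124 FPKM at E13.5 and 0.238 and 0.200 FPKM at E15.5 in Ebf2-EGFP- cells, and its changes differed by 4.41 ± 0.68, adjusted p = 0.00473. Kcnip2 differed by 2.36 ± 0.34, adjusted p = 0.00331, Lhx5 by 2.0 ± 0.23, adjusted p = 0.00105 and Trp73 by 1.52 ± 0.27, adjusted p = 0.00724. Nhlh2 (1.49 ± 0.40, adjusted p = 0.0338), Ebf3 (1.21 ± 0.28, adjusted p = 0.0193) and Cacna2d2 (1.19 ± 0.35, adjusted p = 0.0468) were closer to the threshold. Without replicate 2 of the E15.5 Ebf2-EGFP+ cells their adjusted p-values were 0.119, 0.0692 and 0.155. With a pseudocount of 0.1 the calls of Lhx5, Trp73 and Cacna2d2 were lost, at adjusted p-values of 0.0557, 0.182 and 0.139. For Reln, which in Ebf2-EGFP- cells went from 2.77 and 4.22 to 13.7 and 10.6 FPKM, the difference was not called (0.43 ± 0.46, adjusted p = 0.524).

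The largest positive differences after Ndnf were in 4 genes that rose in Ebf2-EGFP+ cells and were lower in both E15.5 than in both E13.5 libraries of Ebf2-EGFP- cells. Gdf5 differed by 3.28 ± 0.35, adjusted p = 0.00104. Fkbp9, a chaperone of the endoplasmic reticulum, rose from 5.66 and 8.13 to 23.9 and 59.9 FPKM (log2 change 2.32 ± 0.40, adjusted p = 0.00791), against 13.02 and 10.0 FPKM and then 7.87 and 5.05 FPKM in Ebf2-EGFP- cells (difference 3.08 ± 0.49, adjusted p = 0.00509). Cav1, which encodes caveolin-1, rose from 0.545 and 0.440 to 4.08 and 2.92 FPKM (log2 change 1.58 ± 0.19, adjusted p = 0.00399), against 8.37 and 4.42 FPKM and then 2.34 and 1.04 FPKM (difference 3.03 ± 0.39, adjusted p = 0.00161). Tspan18, a tetraspanin, rose from 4.30 and 6.75 to 28.4 and 27.5 FPKM (log2 change 2.17 ± 0.22, adjusted p = 0.00346), against 17.8 and 13.7 FPKM and then 10.4 and 8.57 FPKM (difference 2.85 ± 0.28, adjusted p = 0.00104). The levels of Fkbp9, Cav1 and Tspan18 thus crossed. At E13.5 the Ebf2-EGFP- cells held more, and at E15.5 the Ebf2-EGFP+ cells did. In the other direction, Mfap4 differed by -2.35 ± 0.49, adjusted p = 0.0141 and Eomes by -2.23 ± 0.43, adjusted p = 0.0107. Eomes was at 97.5 and 60.4 FPKM in the E15.5 Ebf2-EGFP- libraries. The call of Mfap4 was lost without replicate 1 of the E13.5 Ebf2-EGFP- cells (adjusted p = 0.0578). Cxcr7 differed by -2.17 ± 0.28, adjusted p = 0.00161. Unc5d, a netrin receptor of upper-layer neurons, fell from 8.79 and 9.25 to 5.04 and 3.31 FPKM (log2 change -0.97 ± 0.24, adjusted p = 0.0204), against 7.56 and 12.03 FPKM and then 21.2 and 26.8 FPKM in Ebf2-EGFP- cells (difference -2.21 ± 0.32, adjusted p = 0.00331). Cnr1, the cannabinoid receptor CB1, fell from 119 and 124 to 57.0 and 55.7 FPKM (log2 change -1.09 ± 0.13, adjusted p = 0.00399), against 13.51 and 21.1 FPKM and then 33.2 and 38.4 FPKM (difference -2.13 ± 0.25, adjusted p = 0.00112).

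Of the 14 radial glia markers Hes1, Nes, Emx2 and Id4, 4 in all, had the more positive change in Ebf2-EGFP+ cells, against 9.14% of all listed genes, and 0 had the more negative one. For each, the drop was in Ebf2-EGFP- cells or was deeper there: the log2 change in Ebf2-EGFP+ against Ebf2-EGFP- cells was -0.47 against -2.53 for Hes1, -0.28 against -1.41 for Nes, 0.10 against -2.02 for Emx2 and -0.90 against -2.57 for Id4. With the replicate number as a block the count was 7, with Hes5, Pax6 and Slc1a3 added, against 22.9% of all listed genes. Of the 51 axon guidance genes 9 had the more negative change, against 3.42% of all listed genes. Ephb4, Ntn4 and Unc5b had the more positive one, against 9.14%. With the block these counts were 19 and 6, against 13.6% and 22.9% of all listed genes. Of the 29 synaptic vesicle and release genes 0 had the more positive change and Cplx1 and Cplx2 the more negative one, against 9.14% and 3.42% of all listed genes. With the block these counts were 1 and 11, against 22.9% and 13.6%. Of the 17 cell cycle genes 1 had the more positive change and 0 the more negative one, and with the block 5 and 0 did, against the same shares. The genes of this paragraph were named after their values were seen.

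**Figure D3:**
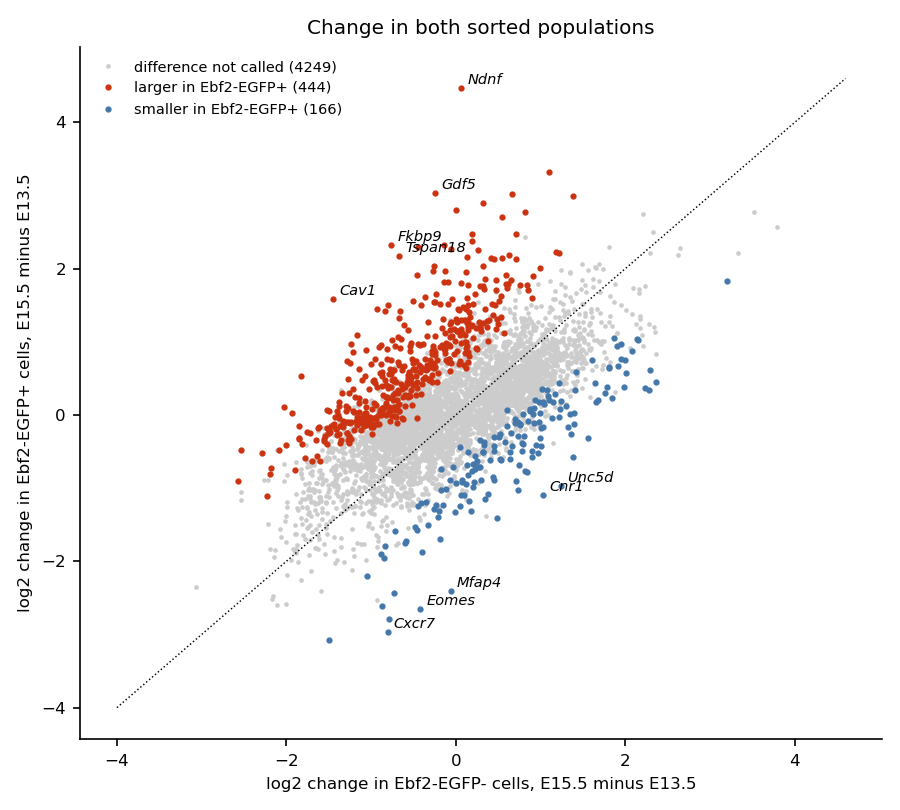
Log2 change from E13.5 to E15.5 in Ebf2-EGFP+ cells against that in Ebf2-EGFP- cells for the listed coding genes, with the 444 genes of larger change in Ebf2-EGFP+ cells in red, the 166 of smaller change in blue and the dotted line where both changes are equal. Names mark the 5 largest differences in each direction, from Ndnf at 4.41 to Mfap4 at -2.35.

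No lncRNA passed in the fit of 4 libraries: of 200 transcripts 0 (0.0%) were called higher and 0 (0.0%) lower by limma, while 72 had an unadjusted p under 0.05, and the median log2 change was 0.0471. In the fit of all 12 libraries, which estimates the spread from 6 groups, 37 (18.5%) were higher and 19 (9.5%) lower. Without overlap between the stages, 77 were higher and 55 lower at E15.5. The lncRNAs below were chosen after their values were seen, from the 5 largest differences without overlap in each direction. 4833422C13Rik (chr13:91701665-91741872, minus strand) is an antisense transcript that overlaps 2 coding genes, of which only Ssbp2 was compared. Ssbp2 is a gene of a single-stranded DNA-binding cofactor of LIM homeodomain factors. The transcript 4833422C13Rik was at 3.90 and 4.07 FPKM at E13.5 and 14.4 and 24.1 FPKM at E15.5 (log2 change 1.98 ± 0.28, adjusted p = 0.0574, and with 12 libraries adjusted p = 0.000611). Ssbp2 on the other strand rose from 10.3 and 10.4 to 40.8 and 48.9 FPKM (log2 change 2.01 ± 0.16, adjusted p = 0.00234), so both were high in the same libraries. Gm16277 is an antisense transcript that overlaps Gfra1, the gene of a GDNF receptor (chr19:58204139-58236047, plus strand), and was at 0.521 and 0.298 FPKM at E13.5 and 2.49 and 4.45 FPKM at E15.5 (log2 change 1.63 ± 0.30, adjusted p = 0.0574, and with 12 libraries adjusted p = 0.000627). Gfra1 rose from 1.28 and 0.853 to 5.52 and 8.27 FPKM (log2 change 1.92 ± 0.25, adjusted p = 0.00481). The 100 genomic bases from the start of each transcript overlap no exon of a coding gene. Letters from a later exon, present if the first exon is shorter, were not checked. The first 100 bases of both transcripts, of 2828 and 662 bases, are shown from GENCODE M21 on GRCm38, 5′ to 3′ and in lower case with no capitals:
4833422C13Rik: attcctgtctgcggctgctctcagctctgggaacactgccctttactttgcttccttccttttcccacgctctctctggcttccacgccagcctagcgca
Gm16277: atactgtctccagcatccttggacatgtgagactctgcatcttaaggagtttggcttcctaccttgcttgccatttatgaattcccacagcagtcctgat

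Of the 5 transcripts that were lower at E15.5, 2 had a nearest coding gene with a value in the table. A830082K12Rik, antisense to and overlapping Nr2f1 (chr13:78199738-78200515, plus strand), was at 18.1 and 14.2 FPKM at E13.5 and 2.61 and 2.84 FPKM at E15.5 (log2 change -2.19), and with all 12 libraries its adjusted p was 0.000349. 4833418N02Rik, a transcript 1193 bases from Ttc7 (chr17:87274886-87281693, minus strand), was at 5.60 and 6.24 FPKM at E13.5 and 1.55 and 1.07 FPKM at E15.5 (log2 change -1.59), with an adjusted p of 0.000418 in that fit. Ttc7, a gene with tetratricopeptide repeats, fell from 4.02 and 3.37 to 0.815 and 0.614 FPKM (log2 change -1.45 ± 0.19, adjusted p = 0.00455). Each of these 4 transcripts thus differed in the same direction as the nearest coding gene given for it. Whether the libraries kept the strand is not stated, so reads of an antisense transcript and of the gene it overlaps cannot be told apart where exons coincide. For the other 6 among the 10 transcripts, the nearest coding gene was not in the table. The transcripts were matched by ID without the version, and 3 of the 10, 4833418N02Rik among them, have another version in the annotation that gave the positions.

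**Figure D4:**
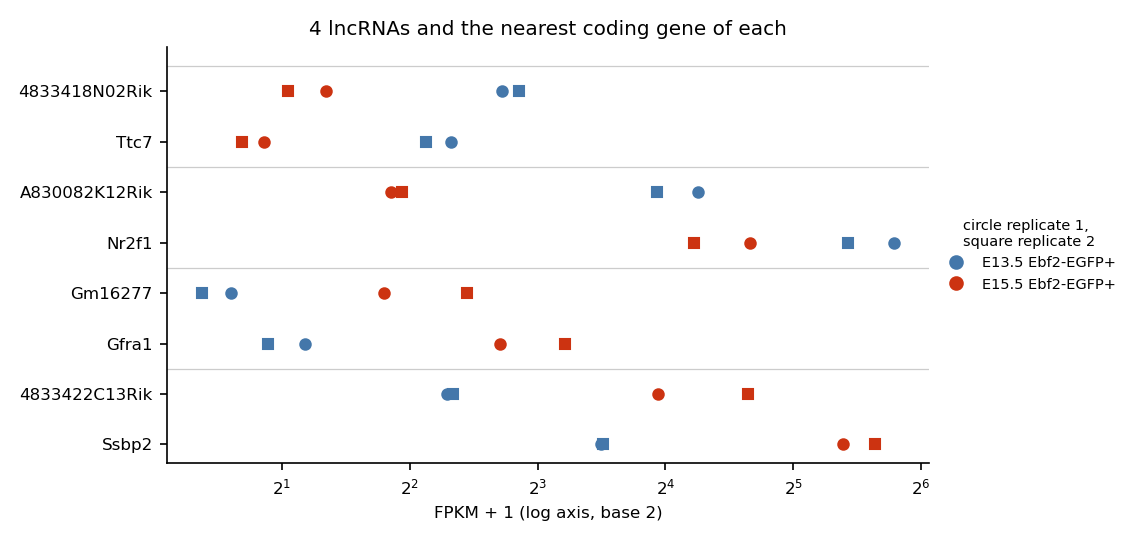
FPKM + 1 on a log axis (base 2) of 4 lncRNAs and the nearest coding gene of each in the 4 Ebf2-EGFP+ libraries, blue for E13.5 and red for E15.5, circles for replicate 1 and squares for replicate 2. For each of the 4 pairs the red points of both lie on the same side of the blue points, to the right for 4833422C13Rik and Gm16277 and to the left for A830082K12Rik and 4833418N02Rik.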

How the data were processed

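The authors sorted Ebf2-EGFP+ and Ebf2-EGFP- cells from dissociated cortex of 3 embryonic stages with 2 biological replicates each, made poly(A) libraries and sequenced them as paired ends. Whether the kit kept strand is not stated in the sources used here. The authors deposited FPKM per feature, made with TopHat2 2.0.8b, Cufflinks 2.2.0 and Cuffdiff on mm10, per the submitters' processing notes and the study's methods, for 4859 coding genes and 200 lncRNA transcripts that they had called differential between the sorted populations. The calls were made partly on these libraries, so the tables are not a sample of all genes. The deposited mean, fold change and p-value columns hold the authors' own comparisons and were not used.

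The 4 Ebf2-EGFP+ libraries of E13.5 and E15.5 were compared by limma (version 3.58.1, under R 4.3.3, with eBayes and a trend) after taking log2(FPKM + 1), separately for both tables, with Benjamini-Hochberg adjustment over each table and calls at an adjusted p under 0.05. The difference between populations was tested in a fit of 12 libraries as 6 groups. Members and gene lists were chosen with earlier results of these data known. Genes named are the CR markers, the 15 largest called changes in each direction without overlap, up to 3 called members per list and direction, the highest members of lists of other cell types and the 5 largest differences between populations in each direction. A rule for the 5 largest called lncRNAs in each direction named none. Values of some genes that these rules name are not reported here. Same-numbered libraries of both populations deviated together within each stage (across coding genes, r = 0.431 for E11.5, 0.534 for E13.5, 0.431 for E15.5), so the numbers pair the populations of a stage, while across E13.5 and E15.5 r was -0.00768. The fit was tested on simulated data: of 100 genes changed by 1 on the log2 scale 62 were called, of 100 changed by 2, 98, and of 4659 unchanged genes 6. For the difference between populations 23 and 92 of 100 were called. The changed genes were drawn only from genes with a higher mean level, and far fewer were changed than were called in the data. These rates therefore do not cover genes with low levels. The simulated spread had the form that the fit assumes, and the simulated libraries were independent, unlike the same-numbered libraries of a stage. The rates thus do not measure how often unchanged genes were called in the data. Alternatives were another pseudocount (0.1), median-of-ratios scaling, a minimum mean FPKM of 1, no trend, 6 or 12 libraries, a replicate block and each library left out. Positions are from GENCODE M21 on GRCm38, the build called mm10, in which 496 of 500 genes matched, and promoter windows from the RefSeq table of GRCm38.p6.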

Additional observations from a re-analysis of the deposited data

Results flagged for a closer look

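The change from E13.5 to E15.5 differed between Ebf2-EGFP+ and Ebf2-EGFP- cells by a test of the difference itself, in limma with all 12 libraries, for 444 coding genes with a larger and 166 with a smaller log2 change in Ebf2-EGFP+ cells, and 1588 genes had an unadjusted p under 0.05. This fit does not use the pairing of the populations by replicate number. With the number as a block within stage, 1115 genes were larger and 660 smaller. Among the genes named above, the log2 change was larger in Ebf2-EGFP+ cells by 4.41 for Ndnf, 3.28 for Gdf5, 3.08 for Fkbp9, 3.03 for Cav1, 2.85 for Tspan18, 2.36 for Kcnip2, 2.0 for Lhx5, 1.52 for Trp73, 1.49 for Nhlh2, 1.21 for Ebf3 and 1.19 for Cacna2d2. The difference was -2.35 for Mfap4, -2.23 for Eomes, -2.21 for Unc5d, -2.17 for Cxcr7 and -2.13 for Cnr1, where the change was the smaller one.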

How the results depend on the processing

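Leaving out each library in turn gave 0 to 893 coding genes higher and 0 to 592 lower at E15.5 by limma, with 0 of both and 1535 at an unadjusted p under 0.05 without replicate 1 of E13.5, 238 higher and 466 lower without replicate 2 of E13.5, and 502 lower without replicate 2 of E15.5. These fits have 1 residual degree of freedom and assume that the lone library varies like the others. The other alternatives (pseudocount 0.1, median-of-ratios scaling, a mean FPKM of at least 1, no trend, the 6 Ebf2-EGFP+ libraries, all 12 libraries and a replicate block) gave 1004 to 1220 higher and 723 to 909 lower. For lncRNAs, 0 were called in either direction, but 3 were higher and 4 lower with a pseudocount of 0.1, 5 and 4 with scaling, 33 and 24 with a mean FPKM of at least 1 (129 tested), 4 and 5 with no trend, 23 and 15 with 6 libraries and 37 and 19 with 12. Leaving out 1 library gave 0 to 0 higher and 0 to 4 lower, the 4 without replicate 2 of E13.5. The cause was not tested.

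For the difference between populations, the replicate block within stage gave 1115 larger and 660 smaller, and the other settings 297 to 477 and 129 to 222. Leaving out 1 library gave 86 to 778 larger and 39 to 357 smaller: 238 and 73 without E13.5 Ebf2-EGFP+ replicate 1, 143 and 78 without its replicate 2, 86 and 39 without E13.5 Ebf2-EGFP- replicate 1, 778 and 357 without its replicate 2, 183 and 65 without E15.5 Ebf2-EGFP+ replicate 2, 712 and 221 without E15.5 Ebf2-EGFP- replicate 1 and 177 and 96 without its replicate 2. Between E13.5 and E15.5 the numbers 1 and 2 did not pair the Ebf2-EGFP+ libraries. With that replicate block 1026 genes were higher and 785 lower, radial glia markers had 10 lower in place of 6 and 0 higher in place of 1, 4 immediate early genes were higher in place of 1, Fos and Vim were called (adjusted p = 0.0406 and 0.0113) and Slc1a3 was not (0.0638).

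The sign turned for 9 named genes, 0 of them called. Leaving out 1 library gave log2 changes of -0.229 to 0.162 for Dcx, -0.04 to 0.245 for Emx2, -0.268 to 1.506 for Fos, -0.743 to 0.029 for Kdr, -0.007 to 0.051 for Lrp8, -1.117 to 0.047 for Nxph4, -0.134 to 0.119 for Vldlr, -0.094 to 0.063 for Wnt3a, -0.391 to 0.078 for Wnt8b, and with scaling that of Vldlr was 0.011. Among the named genes, 11 lost their call with no trend, 7 with 12 libraries, 3 with 6 libraries, 3 with scaling and 2 with a pseudocount of 0.1, and Olig2 and Tac1, both below 1 FPKM, did so with no trend and with 6 and 12 libraries. Read counts were not used here, so the depth behind a value is unknown and no interval from counting can be given.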

Other observations

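At E11.5, the earliest stage, the Ebf2-EGFP+ libraries held Lhx5 at 25.5 and 21.5 FPKM, Trp73 at 32.7 and 36.9 FPKM, Calb2 at 65.9 and 51.2 FPKM, Nhlh2 at 107 and 83.7 FPKM and Ebf2 at 61.2 and 49.1 FPKM, all above the E13.5 values given above. Reln was at 75.9 and 76.3 FPKM and Ndnf at 1.08 and 1.001 FPKM at E11.5. Kcnip2 was at 3.58 and 2.69 FPKM, Cacna2d2 at 16.4 and 23.8 FPKM and Nxph3 at 1.88 and 2.14 FPKM at E11.5. For Reln, Ndnf, Kcnip2, Cacna2d2, Nxph3 and Trp73, both E15.5 libraries lay above all E11.5 and E13.5 libraries. Barhl2, a homeodomain factor, was at 36.1 and 30.4 FPKM at E11.5, 2.35 and 1.52 FPKM at E13.5 and 4.21 and 4.47 FPKM at E15.5. For Gm16277 the E11.5 libraries held 3.62 and 2.81 FPKM. These values share the E13.5 and E15.5 libraries with the comparison above and are given as levels, with no test.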
